A study of Sus scrofa with 24 samples.

Results

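DNA replication and mitosis genes of pig subcutaneous fat were followed across 2 lines selected for feed efficiency. The listed set held 10 genes, chosen by name and with earlier results of these arrays known, and 8 of them were matched to 11 of the 43603 probes. By gene name or RefSeq accession, 9 probes of 6 genes were matched (RFC4 with 3, CDK1 with 2, and MCM3, PCNA, CCNB1 and PLK1 with 1 each). MCM4 and MCM5 were added through the description of 1 probe each, and no probe was matched to MCM2 or MCM7, which were not analysed here.

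Transcripts were measured on one-colour Agilent arrays in 24 pigs at 115 kg body weight, with 1 array per pig and 8 pigs per group. RFIneg pigs came from the line with low residual feed intake and ate ad libitum. RFIplR pigs came from the high residual feed intake line and were restricted to the feeding level of the RFIneg pigs. RFIpl pigs came from the same high line and ate ad libitum. Residual feed intake is the feed eaten beyond what growth and maintenance predict.

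Before DNA is copied, the MCM proteins assemble into a ring that unwinds the double helix, and the replication factor C complex loads the sliding clamp PCNA, which holds the polymerase on the template. Entry into mitosis is driven by the kinase CDK1 with its partner cyclin B1 (CCNB1), and the kinase PLK1 acts at the spindle poles, at kinetochores and in cell division. Mature fat cells rarely divide, so transcripts of this kind come mainly from the dividing cells among stromal, vascular and immune cells. In bulk tissue, fewer cells of a type and less RNA per cell cannot be told apart.

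The 3 probes that the files name RFC4 carried another gene in their description, insulin-like growth factor 2 mRNA-binding protein 2 (IGF2BP2), an RNA-binding protein and no part of the replication machinery. RFC4 and IGF2BP2 lay on the same chromosome in the RefSeq gene table, with 16 genes between them. The probes are therefore called RFC4-labelled below, and which of the genes they measure was not tested. Their 60-base sequences are shown because the first result turns on their identity, with those of MCM3, CDK1 and PLK1 for comparison, and the capitals mark the codons of the 1 forward reading frame without a stop codon:
RFC4-labelled probe 1: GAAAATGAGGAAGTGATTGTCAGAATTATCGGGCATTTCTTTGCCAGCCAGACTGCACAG
RFC4-labelled probe 2: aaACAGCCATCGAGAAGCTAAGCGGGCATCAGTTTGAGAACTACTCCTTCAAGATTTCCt
RFC4-labelled probe 3: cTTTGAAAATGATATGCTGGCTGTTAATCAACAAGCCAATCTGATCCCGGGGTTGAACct
MCM3 probe: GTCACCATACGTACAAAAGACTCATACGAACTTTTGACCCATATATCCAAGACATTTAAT
CDK1 probe 2: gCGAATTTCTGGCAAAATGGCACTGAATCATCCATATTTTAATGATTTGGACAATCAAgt
PLK1 probe: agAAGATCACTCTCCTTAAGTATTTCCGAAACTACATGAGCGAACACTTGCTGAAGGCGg
None of these 6 probes shared a run of 15 bases with another probe of the array. The PCNA probe shared such a run with 2 others.

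Signals of these genes were low, so the number of arrays on which a probe was well above background (the scanner software's own flag) is given beside each level. Levels are log2 of the processed signal over the array's own 75th percentile, so 0 is the 75th percentile of that array. The arrays split into 17 bright and 7 dim ones, the dim ones being 2 RFIneg, 3 RFIplR and 2 RFIpl, with a 75th percentile of 69.3 to 94.3 against 414 to 662 on the bright arrays. Adipocyte markers were bright on every array, with FABP4 and ADIPOQ averaging 8.5 and 7.95. All 10 measured adipocyte genes together ranged from 9.94 to 10.47 in RFIneg, from 9.74 to 10.35 in RFIplR and from 9.58 to 10.4 in RFIpl (log2 of the summed level). Of the 10, 9 were higher in RFIneg than in RFIpl (median 0.46) and 8 higher in RFIplR than in RFIpl (median 0.27). None passed limma's test over all arrays. With array brightness as a block 5 and 3 were called higher and 0 lower, where 6.64% and 10.3% of all probes were called.

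Of the 11 probes, 10 passed the filter on low values, which asked for at least 6 of 8 arrays well above background in 1 group. RFC4-labelled probe 3 was well above background on 0 of 24 arrays and gets no level or fold. The RFC4-labelled probes 1 and 2, MCM3 and PLK1 passed only through RFIpl, so a difference of those probes is partly fixed by the filter. A filter blind to group, at least 12 of all 24 arrays, also kept all 10. Over these 10 probes, 73.8% of the RFIneg spots, 65% of the RFIplR spots and 92.5% of the RFIpl spots were well above background. Over all probes, the share ran from 49.6% to 79.8% on the RFIneg arrays. It ran from 43.1% to 75.4% on the RFIplR arrays and from 56.1% to 76.3% on the RFIpl arrays. As some of the 10 passed only through RFIpl, their RFIpl share is partly fixed by the filter.

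The missing detections lay on certain arrays. RFC4-labelled probes 1 and 2, MCM3 and PLK1 were each well above background on 14 of the 14 bright arrays outside slide 3, on 0 of the 3 arrays of slide 3 and on 1 to 3 of the 7 dim arrays. Slide 3 held RFIneg 2, RFIneg 5 and RFIplR 5 and no RFIpl array, and its arrays had between 52.1% and 57.1% of all probes well above background, against 62.9% to 79.8% on the other bright arrays. On the dim arrays, MCM3 was well above background in 0 of 2 RFIneg, 0 of 3 RFIplR and 2 of 2 RFIpl. RFC4-labelled probe 1 was so in 1 RFIneg, 0 RFIplR and 2 RFIpl of them, and RFC4-labelled probe 2 in 0, 0 and 1.

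RFC4-labelled probe 2 had lower levels in RFIneg and RFIplR than in RFIpl. Its level was -4.75 at the lowest, -4.28 at the median and -3.39 at the highest in RFIneg. In RFIplR it was -4.58, -4.3 and -3.85. In RFIpl it was -3.7, -3.12 and -1.93, with 4 RFIneg, 4 RFIplR and 7 RFIpl arrays well above background. All 8 RFIplR pigs lay below all 8 RFIpl pigs, as in 20 of the 28532 probes measured on all of these arrays (0.0701%), and RFIneg 1, a dim array, reached into the RFIpl range.

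RFIplR minus RFIpl of RFC4-labelled probe 2 was -1.21 (SE 0.23) on the log2 scale, with 4 of the 8 RFIplR arrays not well above background. RFIneg minus RFIpl was -1.19 (SE 0.23). Both comparisons use the same 8 RFIpl arrays, results on which were known when the genes were listed, so both are given as descriptions without p-values for every gene of the set. In the fit of RFIplR minus RFIpl over all probes, 1 of the 10 probes was past an adjusted p of 0.05, beside 0.297% of all 28601 probes (0.115% lower), and nothing is read from that count. RFIneg minus RFIplR, which holds no RFIpl array, was 0.03 (SE 0.23, 95% interval -0.43 to 0.48, limma adjusted p = 0.999).

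The size and sign of the RFIplR minus RFIpl difference of RFC4-labelled probe 2 depended on the background correction. Within the 5 slides that held both groups RFIplR minus RFIpl ran from -1.43 to -0.55, and within the 3 scan days from -1.33 to -0.79. With slide as a block it was -1.15, and without slide 3 it was -1.22. With each array left out in turn it ran from -1.31 to -1.05. With normexp background correction the difference was 0.29, RFIneg minus RFIpl was -0.37 and RFIneg minus RFIplR was -0.66. That correction starts from the mean signal and the background of each spot and adds an offset of 50. The processed signals of RFC4-labelled probe 2 ran from 2.94 to 88.2.

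RFC4-labelled probe 1 had a wider spread. Its level was -5.41 at the lowest, -4.29 at the median and -2.41 at the highest in RFIneg, -4.92, -4.34 and -2.74 in RFIplR, and -4.41, -3.69 and -1.41 in RFIpl. It was well above background on 5 RFIneg, 4 RFIplR and 8 RFIpl arrays, and the groups overlapped. The dim arrays held its highest values in RFIneg, RFIplR and RFIpl. RFIneg minus RFIpl was -0.95 (SE 0.49), RFIneg minus RFIplR was -0.15 (SE 0.49, limma adjusted p = 0.999) and RFIplR minus RFIpl was -0.8 (SE 0.49). With array brightness as a block, RFIplR minus RFIpl was -1.03.

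One further probe was described as IGF2BP2 without an RFC4 label, and it was singled out after its values were seen, so it gets no test. Its level was -3.44 at the lowest, -3.08 at the median and -2.7 at the highest in RFIneg, -4.56, -3.26 and -2.49 in RFIplR, and -2.6, -1.93 and -1.62 in RFIpl. All 8 RFIneg pigs lay below all 8 RFIpl pigs, as 4 of 28502 probes did (0.014%), while 1 RFIplR pig reached into the RFIpl range. RFIneg minus RFIpl was -1.08 (SE 0.25) and RFIplR minus RFIpl was -1.45 (SE 0.25). It shared runs of 15 bases with 2 probes that carry no symbol, so its signal may not be its own. Of these 2, the 1 that was kept differed by -0.27 (SE 0.16) in RFIneg minus RFIpl and by 0 (SE 0.16) in RFIplR minus RFIpl.

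**Figure D1:**
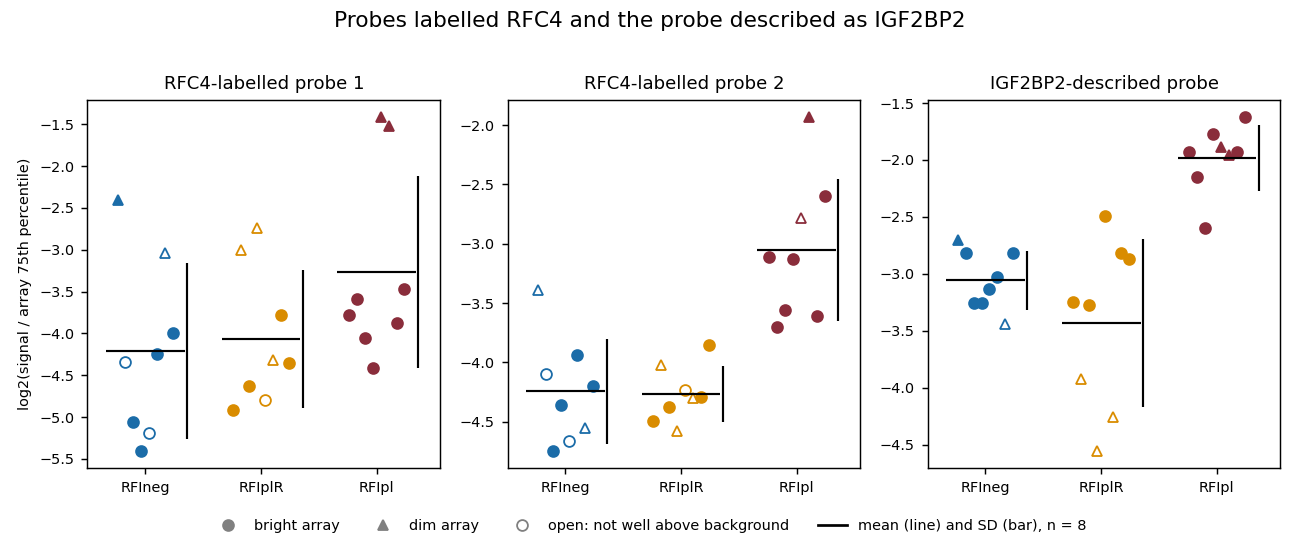
Level of the 2 kept RFC4-labelled probes and of the IGF2BP2-described probe (vertical axis, log2 of signal over the array's 75th percentile) on each of the 8 arrays of RFIneg, RFIplR and RFIpl; circles are bright arrays, triangles dim arrays, open symbols arrays not well above background, lines the mean and bars the SD. For RFC4-labelled probe 2 the RFIplR arrays all lie below the RFIpl arrays, with the highest RFIplR array at -3.85 and the lowest RFIpl array at -3.7.

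MCM3, a subunit of the helicase ring, had the largest mean gap among the other genes. Its level was -5.17 at the lowest, -4.4 at the median and -2.96 at the highest in RFIneg. It was -5.35, -4.42 and -3.64 in RFIplR, and -3.75, -3.39 and -1.82 in RFIpl. It was well above background on 4 RFIneg, 4 RFIplR and 8 RFIpl arrays, and 2 RFIneg arrays and 1 RFIplR array reached into the RFIpl range. Its highest RFIneg value, on RFIneg 1, and its highest RFIpl values, on RFIpl 5 and RFIpl 6, came from dim arrays.

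MCM3 did not differ past the threshold between RFIneg and RFIplR, at 0.14 (SE 0.33, 95% interval -0.5 to 0.78, limma adjusted p = 0.999). RFIplR minus RFIpl was -1.31 (SE 0.33) and RFIneg minus RFIpl was -1.17 (SE 0.33). With brightness as a block RFIplR minus RFIpl was -1.4 (SE 0.26), and without slide 3 in that fit it was -1.31. Within the 5 slides that held both groups it ran from -2.59 to 0.02, and with normexp background correction it was 0.34.

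MCM4, another subunit of the ring, was the brightest of the 8 genes and was well above background on all 24 arrays. Its level was -0.75 at the lowest, 0.26 at the median and 0.85 at the highest in RFIneg, -0.84, 0.16 and 1.09 in RFIplR, and -0.07, 1.03 and 1.58 in RFIpl. The ranges overlapped, and the lowest values of RFIneg, RFIplR and RFIpl all came from dim arrays.

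RFIplR minus RFIpl of MCM4 was -0.83 (SE 0.28), and it was -0.71 with brightness as a block (SE 0.17). RFIneg minus RFIplR was 0.11 (SE 0.28, 95% interval -0.43 to 0.66, limma adjusted p = 0.999), and RFIneg minus RFIpl was -0.72 (SE 0.28). With normexp background correction RFIplR minus RFIpl of MCM4 was -0.69, and without RFIpl 7 and 8 it was -0.66.

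MCM5, also of the ring, had a smaller gap. It was -3.14 at the lowest, -2.29 at the median and -1.7 at the highest in RFIneg, -4.09, -2.33 and -1.47 in RFIplR, and -2.65, -2.05 and -1.31 in RFIpl. The 3 lowest RFIplR arrays, at -4.09, -3.6 and -2.69, were the 3 dim ones and were not well above background. RFIneg minus RFIplR was 0.23 (SE 0.31, limma adjusted p = 0.999), RFIplR minus RFIpl was -0.53 (SE 0.31) and RFIneg minus RFIpl was -0.3 (SE 0.31).

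PCNA, the sliding clamp, differed little between groups. Its level was -1.45 at the lowest, -1.35 at the median and -0.71 at the highest in RFIneg, -2.19, -1.53 and -1.28 in RFIplR, and -2.13, -1.36 and -0.84 in RFIpl. It was well above background on 8 RFIneg, 7 RFIplR and 8 RFIpl arrays, and the groups overlapped widely. RFIneg minus RFIplR was 0.37 (SE 0.18, 95% interval 0.02 to 0.73, limma adjusted p = 0.999, unadjusted p = 0.0511). RFIplR minus RFIpl was -0.22 (SE 0.18) and RFIneg minus RFIpl was 0.16 (SE 0.18). With normexp background correction RFIneg minus RFIplR was -0.06 and RFIplR minus RFIpl was 0.17.

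**Figure D2:**
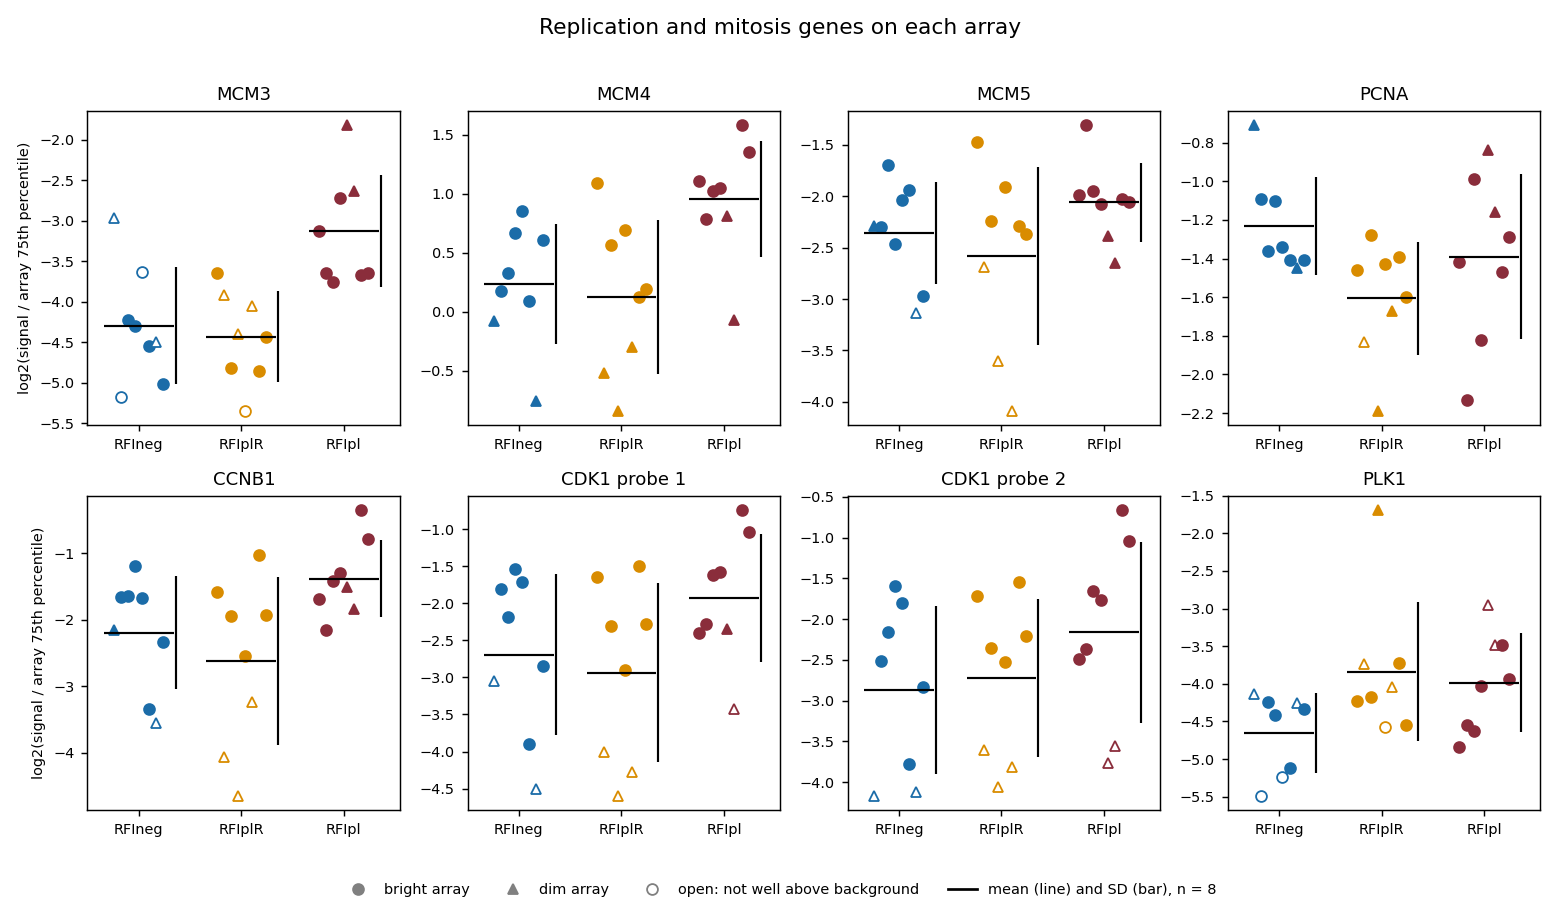
Level of 7 replication and mitosis genes (vertical axes, log2 of signal over the array's 75th percentile, each panel with its own scale) on each array of RFIneg, RFIplR and RFIpl; circles are bright arrays, triangles dim arrays, open symbols arrays not well above background, lines the mean and bars the SD of 8 arrays. MCM4 is well above background on all 24 arrays, and the dim arrays hold the lowest values of CDK1 probe 1 in RFIneg, RFIplR and RFIpl.

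CCNB1, the cyclin partner of CDK1, ran from -3.55 over a median of -1.91 to -1.19 in RFIneg, from -4.65 over -2.25 to -1.02 in RFIplR, and from -2.16 over -1.46 to -0.35 in RFIpl. It was well above background on 7 RFIneg, 5 RFIplR and 8 RFIpl arrays. The 3 lowest RFIplR values were those of its dim arrays, and the groups overlapped. RFIneg minus RFIplR was 0.43 (SE 0.45, 95% interval -0.46 to 1.32, limma adjusted p = 0.999), RFIplR minus RFIpl was -1.24 (SE 0.45) and RFIneg minus RFIpl was -0.81 (SE 0.45). Within the bright arrays RFIplR minus RFIpl was -0.53, and within the dim arrays it was -2.31.

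CDK1, the kinase that starts mitosis, was read by a pair of probes. Probe 1 was -4.51 at the lowest, -2.52 at the median and -1.54 at the highest in RFIneg, -4.6, -2.6 and -1.5 in RFIplR, and -3.42, -1.95 and -0.74 in RFIpl. It was well above background on 6 RFIneg, 5 RFIplR and 7 RFIpl arrays, and the groups overlapped. For probe 1, RFIneg minus RFIplR was 0.25 (SE 0.51, limma adjusted p = 0.999) and RFIplR minus RFIpl was -1.01 (SE 0.51). For probe 2 they were -0.14 (SE 0.5, limma adjusted p = 0.999) and -0.56 (SE 0.5). RFIneg minus RFIpl was -0.76 (SE 0.51) for probe 1 and -0.71 (SE 0.5) for probe 2.

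Both mitotic genes peaked on the same pair of arrays. RFIpl 7 and RFIpl 8 had the highest CDK1 levels of all 24 arrays, -0.74 and -1.03 at probe 1, and the highest CCNB1 levels, -0.35 and -0.79. The same arrays carried transcripts of epithelium: the summed level of the 4 measured keratinocyte genes of 12 listed was 5.88 on RFIpl 7 and 4.4 on RFIpl 8, against -1.39 to -0.52 in RFIneg, -1.08 to 0.25 in RFIplR and -1.01 to -0.22 on the other RFIpl arrays. SFN reached 5.27 and 3.73 there, and DSP 4.3 and 2.95. KRT5 and KRT14 had no matched probe, KRT1 was not kept, and KRT10 was highest on RFIneg 7. Without RFIpl 7 and 8, RFIplR minus RFIpl was -0.66 for CDK1 probe 1 and -0.97 for CCNB1, and RFIneg minus RFIpl was -0.42 and -0.54. The part of epithelial cells in the level of either gene, and whether they were of skin, was not tested beyond that.

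Apart from group means, CCNB1 and CDK1 moved together from pig to pig. Over the 17 bright arrays, with each group centred on its own mean, Pearson's r was 0.96 and Spearman's rho 0.96 (permutation p = 2e-05 for each, the smallest that 100000 resamples give, and adjusted p = 0.00056 over 28 pairs). Without the 2 arrays farthest from the median of CCNB1 r was 0.94, without RFIpl 7 and 8 it was 0.96, and over the 7 dim arrays it was 0.72. The dim value is not particular to this pair, as CDK1 probe 1 was well above background on 1 of those 7 arrays. There, r of other pairs ran from -0.54 for CCNB1 and PLK1 to 0.95 for PCNA and CCNB1 and 0.99 for MCM3 and CDK1. Over the bright arrays, CCNB1 with CDK1 was the only pair of the 28 among the 8 genes past the threshold, by r and by rho. The 28 pairs were formed after values were seen.

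**Figure D3:**
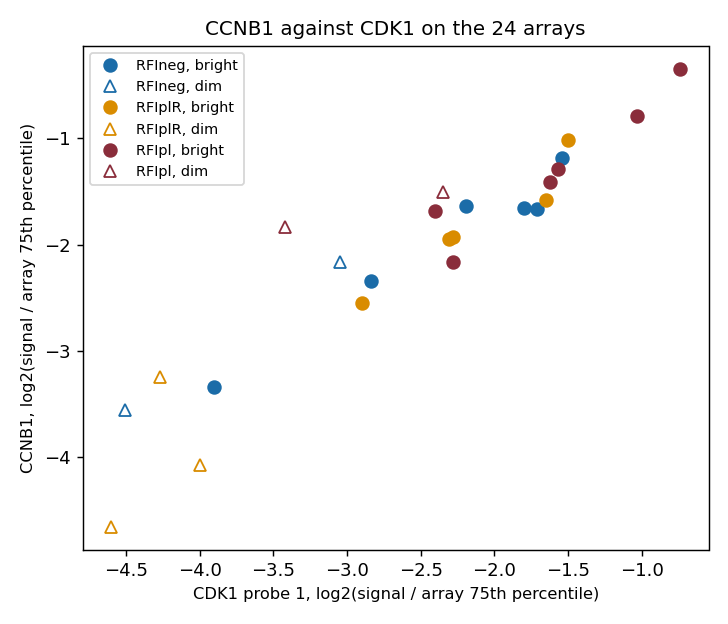
CCNB1 (vertical axis) against CDK1 probe 1 (horizontal axis), both as log2 of signal over the array's 75th percentile, with 1 point per array for RFIneg, RFIplR and RFIpl; filled circles are bright arrays and open triangles dim arrays. RFIpl 7 and RFIpl 8 stand at the upper right, with CCNB1 at -0.35 and -0.79, and most dim arrays stand at the lower left.

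On the bright arrays, RFC4-labelled probe 1 showed no such relation with the other 7 genes. Over the same 17 bright arrays r with it was -0.58 for MCM3 (permutation p = 0.0149, adjusted p = 0.104 over 7 relations; rho -0.51, permutation p = 0.0362, adjusted p = 0.127) and -0.49 for MCM4 (permutation p = 0.0468, adjusted p = 0.164; rho -0.54, permutation p = 0.026, adjusted p = 0.127). The other 5 lay between -0.33 for MCM5 and 0.01 for PLK1. None of the 7 passed after adjustment, and none passed without the 2 arrays farthest from its median, RFIplR 7 and RFIneg 8, where r was -0.53 for both MCM3 and MCM4. Over the 7 dim arrays, where r was not tested, it ran from -0.38 for CCNB1 to 0.68 for PLK1 and 0.71 for MCM5. For MCM3 it was 0.23 there.

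PLK1, the mitotic kinase, was among the dimmest of the set. Its level was -5.49 at the lowest, -4.38 at the median and -4.14 at the highest in RFIneg, -4.57, -4.1 and -1.69 in RFIplR, and -4.84, -3.98 and -2.95 in RFIpl. It was well above background on 4 RFIneg, 5 RFIplR and 6 RFIpl arrays. The RFIplR value of -1.69 belonged to RFIplR 4, a dim array, and the next RFIplR value was -3.72.

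PLK1 gave the widest gap of the set between RFIneg and RFIplR. RFIneg minus RFIplR was -0.82 (SE 0.35, 95% interval -1.51 to -0.12, limma adjusted p = 0.999, unadjusted p = 0.0302), and all 8 RFIneg pigs lay below the RFIplR mean. Without RFIplR 4 it was -0.51. RFIplR minus RFIpl was 0.15 (SE 0.35), or -0.16 without RFIplR 4, and RFIneg minus RFIpl was -0.67 (SE 0.35).

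**Figure D4:**
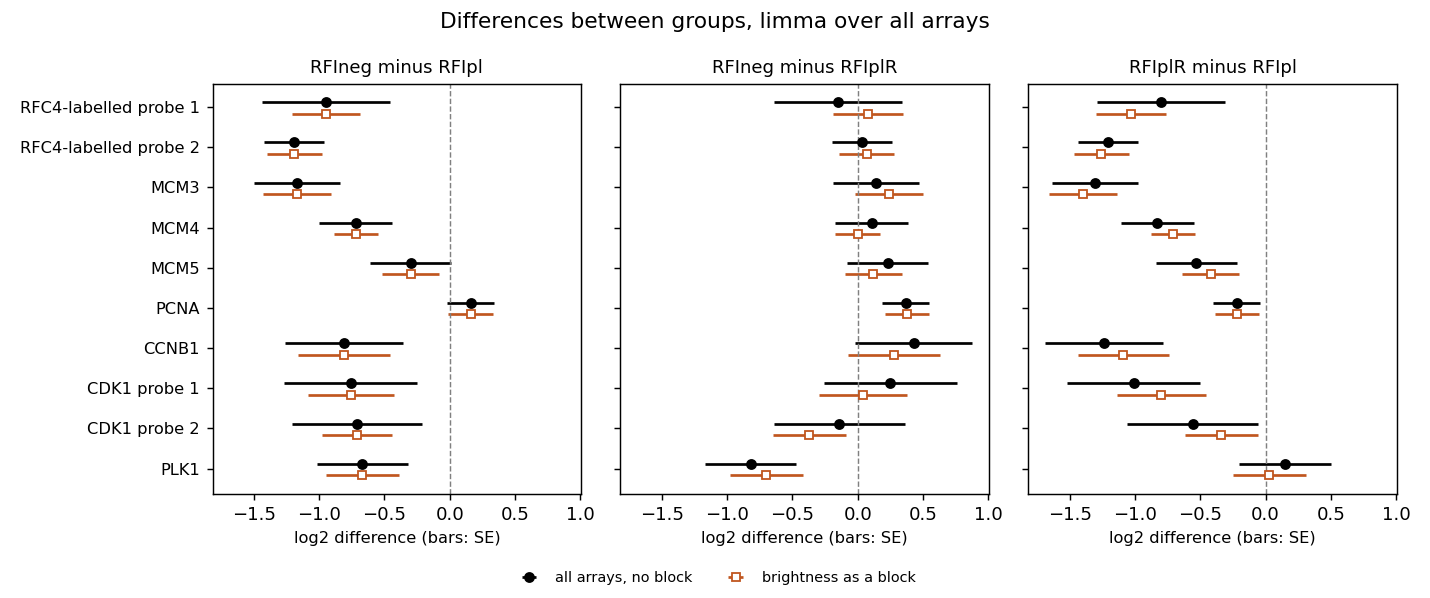
Log2 difference of each of the 10 kept probes (horizontal axis, bars SE) in RFIneg minus RFIpl, RFIneg minus RFIplR and RFIplR minus RFIpl; filled circles are the fit over all arrays without a block and open squares the fit with brightness as a block. In RFIplR minus RFIpl the RFC4-labelled probe 2 stands at -1.21 and MCM3 at -1.31, while RFIneg minus RFIplR of the same probes stands at 0.03 and 0.14. With normexp background correction, not drawn, RFIplR minus RFIpl of these probes was 0.29 and 0.34, and RFIneg minus RFIplR was -0.66 and -0.69.

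Across the 8 genes, each at its brightest probe, the median of RFIneg minus RFIplR was 0.18, with 6 above and 2 below 0, beside a median of -0.01 over all 28601 probes. No gene of the set passed the test in that comparison, where limma called 0% of all probes and 606 (2.12%) had an unadjusted p under 0.05. The signs depended on the background correction. With normexp, where the median of all probes was -0.19, RFIneg minus RFIplR was 0.09 for MCM4. It was below 0 for the RFC4-labelled probes (-0.7 and -0.66), MCM3 (-0.69) and MCM5 (-0.35). PCNA (-0.06), CCNB1 (-0.33), PLK1 (-0.85) and CDK1 (-0.41) were also below 0. The median of RFIplR minus RFIpl was -0.82, beside 0.01 over all probes. With normexp background correction, where the median of all probes was 0.2, RFIplR minus RFIpl was above 0 for the RFC4-labelled probes (0.41 and 0.29), MCM3 (0.34), MCM5 (0.17), PCNA (0.17), PLK1 (0.72) and CDK1 (0.03), and below 0 for MCM4 (-0.69) and CCNB1 (-0.12). In RFIneg minus RFIpl the median was -0.74, beside -0.01 over all probes, and that comparison called 0.206% of all probes. The choice of genes bears on RFIneg minus RFIpl directly and on RFIplR minus RFIpl through the shared RFIpl arrays, so neither median is support for a shift. Over the 7 genes without the RFC4-labelled probes, the medians were -0.72 in RFIneg minus RFIpl, 0.23 in RFIneg minus RFIplR and -0.83 in RFIplR minus RFIpl.

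The wider machinery was followed through 4 lists of further genes, listed by function with earlier results of these arrays known, of which 41 had a kept probe. The genes named below were picked for the smallest p-values or because they were called. Their p-values in the comparisons with RFIpl are therefore descriptions, and no support is drawn from a call there. None of the 41 passed the test in any of the 3 comparisons over all arrays. At an unadjusted p under 0.05 there were 2 in RFIneg minus RFIpl, beside 1964 of all 28601 probes. There was 1 in RFIneg minus RFIplR, beside 606 of all probes. RFIplR minus RFIpl had 6, beside fewer than 2602 of all probes. With brightness as a block, 1 rose and 2 fell in RFIneg minus RFIpl, where 6.64% of all probes were called, and 4 rose and 4 fell in RFIplR minus RFIpl, where 10.3% were called and 4.51% were called lower.

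Of the replication factors, 13 of 42 were measured, with a median of 0.06 in RFIneg minus RFIpl, -0.17 in RFIneg minus RFIplR and 0.12 in RFIplR minus RFIpl. ORC4, of the origin recognition complex, stood at -0.29 in RFIneg minus RFIpl (limma adjusted p = 0.873) and at -0.39 in RFIplR minus RFIpl (limma adjusted p = 0.463). RFC5, a clamp loader subunit, stood at 0.27 in RFIneg minus RFIpl (limma adjusted p = 1), at -0.24 in RFIneg minus RFIplR (limma adjusted p = 0.999) and at 0.51 in RFIplR minus RFIpl (limma adjusted p = 0.345). PRIM1 and PRIM2, of the primase, and POLA2, of polymerase alpha, had limma adjusted p-values of 0.614 and above. With brightness as a block RFC5 rose by 0.45 and ORC4 fell by 0.34 in RFIplR minus RFIpl (limma adjusted p = 0.0431 and 0.0488). With brightness as a block, MCM6, another subunit of the helicase ring, fell by 0.46 in RFIneg minus RFIpl (limma adjusted p = 0.0211) and fell by 0.48 in RFIplR minus RFIpl (limma adjusted p = 0.0132). MCM8, which acts in repair of DNA breaks, rose by 0.29 (limma adjusted p = 0.0498) and by 0.51 (limma adjusted p = 0.00163) in the same fits. All of these calls are descriptions, since the list was made with earlier results known.

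Of the genes of G1 and S phase control, 11 of 25 were measured. CCND2, a D-type cyclin that starts the cycle, was the nearest to the threshold. It averaged 3.9 ± 0.35 in RFIneg, 3.99 ± 0.46 in RFIplR and 4.82 ± 0.45 in RFIpl (SD, n = 8 each) and was well above background on all arrays. RFIneg minus RFIpl was -0.91 (SE 0.22, limma adjusted p = 0.0899) and RFIplR minus RFIpl was -0.83 (SE 0.22, limma adjusted p = 0.107). With brightness as a block both were past the threshold (limma adjusted p = 0.0094 and 0.00863), a description, since the list was made with earlier results known. CDK2, CCNE1, CDKN1A and E2F3 had limma adjusted p-values of 0.506 and above. With brightness as a block, E2F3, which switches on S phase genes, and CDKN1B, which holds cells in G1, rose by 0.87 and 0.33 in RFIplR minus RFIpl (limma adjusted p = 0.00211 and 0.0243), while CCND3, another D-type cyclin, fell by 0.39 (limma adjusted p = 0.0453). Of nucleotide supply for DNA, DCTD alone of 8 genes was measured, at 0.1, 0.05 and 0.05 in the 3 comparisons.

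Of the mitosis list, 16 of 40 genes were measured, with a median of -0.35 in RFIneg minus RFIpl, 0.05 in RFIneg minus RFIplR and -0.34 in RFIplR minus RFIpl. BIRC5, which guards chromosome segregation, stood at -0.78 in RFIplR minus RFIpl (SE 0.28, limma adjusted p = 0.325). PBK, a mitotic kinase, stood at -1.09 (SE 0.45, limma adjusted p = 0.454), and AURKA, a kinase of the spindle poles, at -0.53 (SE 0.24, limma adjusted p = 0.539). CENPF and ESPL1, at -0.64 and -0.6 in RFIneg minus RFIpl, and CDC25C, at 0.47 in RFIneg minus RFIplR, did not pass either. None of the 16 passed with brightness as a block.

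Markers of other tissues were uneven between arrays. The 7 measured skeletal muscle genes of 12 summed to 10.26 on RFIpl 2 and 5.21 on RFIpl 1, against 3.68 to 4.67 in RFIneg and 3.63 to 5.07 in RFIplR. ACTA1 and CKM reached 8.52 and 7.6 on RFIpl 2, and TNNT3, TNNI2, MYLPF and TNNT1 peaked there too. Without RFIpl 1 and 2, RFIplR minus RFIpl was -1.33 for RFC4-labelled probe 2, -1.39 for MCM3 and -0.83 for MCM4. The summed macrophage and myeloid genes (8 of 12, led by S100A12 and CD163) ranged from 3.77 to 4.79 in RFIneg, 3.29 to 4.98 in RFIplR and 2.76 to 4.42 in RFIpl. Of these 8, 2 passed limma's test as higher in RFIneg than in RFIpl, where 0.206% of all probes were called, namely S100A12 by 1.9 (SE 0.39, limma adjusted p = 0.0418) and S100A8 by 2.18 (SE 0.46, limma adjusted p = 0.0451), both of neutrophils and monocytes. In RFIplR minus RFIpl, S100A12 alone passed, at 1.8 (SE 0.39, limma adjusted p = 0.0474). The marker lists were also made with earlier results known, so these calls are descriptions. The other 6 ran from -0.47 for CD163 to 1.18 for S100A9 in RFIneg minus RFIpl, with 4 of them below 0, and none of the 8 passed in RFIneg minus RFIplR. T and B cell genes (7 of 12, led by LCK and CD3D) ranged from -1.14 to 0.97, -0.87 to 0.83 and -1.38 to 0.84. Endothelial genes (6 of 10, led by PECAM1 and VWF) ranged from 5.9 to 6.44, 5.79 to 6.62 and 5.26 to 6.16, and stromal genes (6 of 10, led by DCN and COL1A2) from 7.28 to 8.63, 6.55 to 8.67 and 7.72 to 8.34. The ranges of the last 4 lists overlapped between all groups, and their part in the levels of the replication and mitosis genes was not tested.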

How the data were processed

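Per the file headers, Feature Extraction 10.7.3.1 made the deposited intensity of each spot, background-subtracted and unscaled from array to array. The authors also deposited processed log2 values, which set against the scanner files were log2 of the processed signal minus each array's median (SD of the difference at most 4.45e-10). The submitters' processing notes name R 2.10.0.

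Processed signals were divided by each array's 75th percentile over non-control probes, floored at 0.002 (0 spots) and put on the log2 scale. Control spots and 299 spots marked non-uniform were dropped, and the 5 spots of 50 repeated probes were averaged. Probes well above background on at least 6 of 8 arrays of 1 group and missing on at most 6 arrays were kept (28601 of 43603). One limma 3.58.1 fit (R 4.3.3) over 24 arrays gave all differences and was tested on simulated data. P-values were adjusted by Benjamini-Hochberg across the kept probes and called under 0.05. Intervals are 1.96 SE to each side, slightly narrower than intervals from limma's t-test would be. Correlations used permutation tests (Python 3.11.15, scipy 1.17.1, numpy 2.4.6, pandas 2.3.3), and figures matplotlib 3.10.9. Alternatives were a replicate, brightness, slide or scan day block, subsets of arrays, other background correction, scaling and filters, and each array left out; leaving out slide 3 was added after seeing the data.

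Names came from RefSeq accessions (7184 probes), gene identifiers (1365), the files' gene names (3570) and, for 31 probes, the description. A further 32 probes had several names and 31421 none. A gene was given at its brightest probe. From the wider lists, the 3 genes with the smallest p per list and comparison were named, plus those called with brightness as a block, and from the marker lists the 2 brightest and any marker whose top array stood over 4 log2 units above its median. Genes and lists were chosen with earlier results of these data known. The labels do not say that replicates share a litter or day, no pair of arrays was identical, and the number of arrays limits the precision.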

Additional observations from a re-analysis of the deposited data

Results flagged for a closer look

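Of 33 sets of 8 arrays (11 probes in 3 groups) checked for a single value far from the rest, 1 stood out, and chance flags about 1 in 20 such sets. PLK1 on RFIplR 4 was -1.69, with the nearest RFIplR array at -3.72. That array is dim, and the spot was well above background there. What set this value was not tested.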

How the results depend on the processing

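The count of probes called in RFIneg minus RFIpl was 59. It was 0 with the replicate block, with slide as a block, on the dim arrays alone, on scan day 1 alone, on scan day 2 alone, with normexp background correction, without RFIpl 7 and 8, without RFIpl 1 and 2, without those 4 arrays under a brightness block, and without slide 3. It was 3 with median centring, 2 with no filter on dim probes, 39 with the deposited value table, 296 on bright arrays alone, 804 with brightness as a block without slide 3, 1898 with brightness as a block and 3001 with array weights. With each array left out it ran from 1 (without RFIpl 8) to 284 (without RFIpl 3). Of the 59, 28.8% were lower, against 100% of the 3 with median centring and 12.8% of the 39 from the deposited table.

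The count in RFIneg minus RFIplR was 0 by limma, with 606 probes at an unadjusted p under 0.05, and 4 with array weights. The count in RFIplR minus RFIpl was 85. It was 0 on the dim arrays, on scan day 1 or scan day 2 alone and without RFIpl 7 and 8, 1 without RFIpl 1 and 2, 2 with the replicate block, 4 with normexp background correction, 20 with median centring, 21 without slide 3, 25 with slide as a block and 38 with no filter. It was 135 with a filter of all 8 arrays, 258 with scan day as a block, 372 with brightness as a block without RFIpl 1, 2, 7 and 8, 936 on bright arrays, 1768 with brightness as a block without slide 3, 2941 with array weights and 2954 with brightness as a block. With each array left out it ran from 22 (without RFIpl 1) to 296 (without RFIpl 3). Of the 85, 38.8% were lower, against 75% of the 4 with normexp.

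Called genes of the 41 in the wider lists numbered 0. In RFIneg minus RFIpl they numbered 3 with brightness as a block, 1 on bright arrays, 3 with array weights, 1 with brightness as a block without slide 3, and 0 to 1 with each array left out. In RFIplR minus RFIpl they numbered 8 with brightness as a block, 3 on bright arrays, 6 with array weights, 3 with brightness as a block without RFIpl 1, 2, 7 and 8, 4 with it without slide 3, and 0 to 1 with each array left out. On dim arrays alone 35% of RFIneg, 20% of RFIplR and 70% of RFIpl spots of the 10 probes were well above background. Over all probes, the dim arrays had 49.6% to 56.8% in RFIneg, 43.1% to 50.2% in RFIplR and 56.1% to 61.5% in RFIpl. The filter partly fixes the RFIpl share of the 10 probes.

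RFC4-labelled probe 2 in RFIplR minus RFIpl, a description, turned to 0.29 with normexp background correction, and was -1.21 with the replicate block, -1.82 with quantile normalization, -1.33 without RFIpl 1 and 2 and -1.23 without RFIpl 7 and 8. In RFIneg minus RFIplR no gene of the set passed in any setting. Same-numbered arrays correlated from -0.82 to 0.88 over 24 pairs, 12 of them at or under 0.1. Those 12 each joined a bright and a dim array, and pairs of like brightness ran from 0.25 to 0.88. The values follow brightness, so they cannot show whether the numbers share a pairing. Low signal over background limits what these probes can show; the causes of these changes were not tested.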
